A study of Mus musculus with 6 samples.

Results

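Large ribosomal subunit assembly factors are the proteins that build the large subunit of the ribosome and then leave it. The group described here holds 52 such genes, chosen by name. All 52 were matched by symbol to a single gene ID among the 55401 genes listed in the count tables. Each was placed at the step where it mainly acts, which gave 34 nucleolar, 13 nuclear and 5 cytoplasmic factors. RNA-seq counts came from RAW264.7, a macrophage line that grew out of a virus-induced mouse tumour and is labelled WT. Its 6 libraries are 3 labelled control siRNA and 3 labelled Nop16 siRNA by title. The treatment text, the same for all 6, gives siRNA against Nop16 at 20 nM with a lipid reagent for 3 days, and the treatment tag reads "no" throughout. The text does not say what the controls received, nor whether each replicate was its own culture. The p-values here therefore reflect library-to-library spread, which may be technical.

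The large subunit starts in the nucleolus, where newly made ribosomal RNA is folded, cut and modified while ribosomal proteins join it. The particle then moves into the nucleoplasm, where ATPases and a spacer-removing complex strip early factors, and it passes through the nuclear pore on export adaptors. In the cytoplasm the last factors are released so that the small subunit can join. NOP16 is itself a nucleolar protein of this pathway, and the study asked what it does in macrophages.

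Each library held 15601477 to 23061922 counts, and every control library was deeper than every Nop16 siRNA library. Levels are CPM, counts scaled to library size with TMM factors, and a change is the log2 fold change of Nop16 siRNA minus control siRNA. Nop16 (ENSMUSG00000025869, chromosome 13, 54584185 to 54590090, minus strand, GRCm38) stood at 17.7, 18.8 and 20.2 CPM in the control libraries and at 3.94, 4.15 and 4.56 CPM in the Nop16 siRNA libraries. It fell by 2.16 on the log2 scale (SE 0.12, edgeR adjusted p = 2.94e-23). The 8 macrophage markers summed to 6106 to 6377 CPM in controls and to 9982 to 10387 CPM after Nop16 siRNA, and none of the 8 was at 0. Lyz2 alone went from 1144 to 2934 CPM on average, and 6 of the 8 were called higher. Adgre1 and Spi1 changed by 0.005 and -0.02 and did not pass. The 5 T cell markers summed to at most 0.380 CPM and the 4 epithelial markers to at most 0.0543 CPM, with 3 and 2 of them at 0 in every library. The 5 fibroblast markers reached at most 1.63 CPM, with 3 at 0 in every library, and the 5 neutrophil markers at most 1.81 CPM, with 1 at 0. The 4 B cell markers, with 1 at 0, summed to 13.4 to 14.4 CPM in controls and 6.79 to 8.31 CPM after Nop16 siRNA, almost all of it Ighm. The part of these shifts in the results below was not tested. Fewer cells of a kind and less RNA per cell cannot be told apart in such bulk samples.

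Assembly factor RNA as a whole moved little. All 52 members passed the filter on low counts, with 141 to 8681 counts per library. Of them 15 rose and 6 fell, and 31 did not pass (edgeR, adjusted p below 0.05 over 14269 genes). That is 40.4% of members called, against a background of 45.4% of all genes tested, with 23.0% higher and 22.4% lower. Among the 9076 genes with control levels inside the range of the members, 10.1 to 368 CPM, a range set after the values were seen, 55.9% were called, 28.4% higher and 27.5% lower. In 25 members the 2 groups did not overlap, beside 52.5% of all genes. The median change of the members was 0.07, beside -0.0002 for all genes. Changes beyond 1.5-fold were seen for 3 members (5.77%), beside 13.1% of all genes and 7.53% of genes in the same range of levels. Those 3 were Surf6, which rose 2.03-fold, and Nop53 and Nsa2, which fell.

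**Figure D1:**
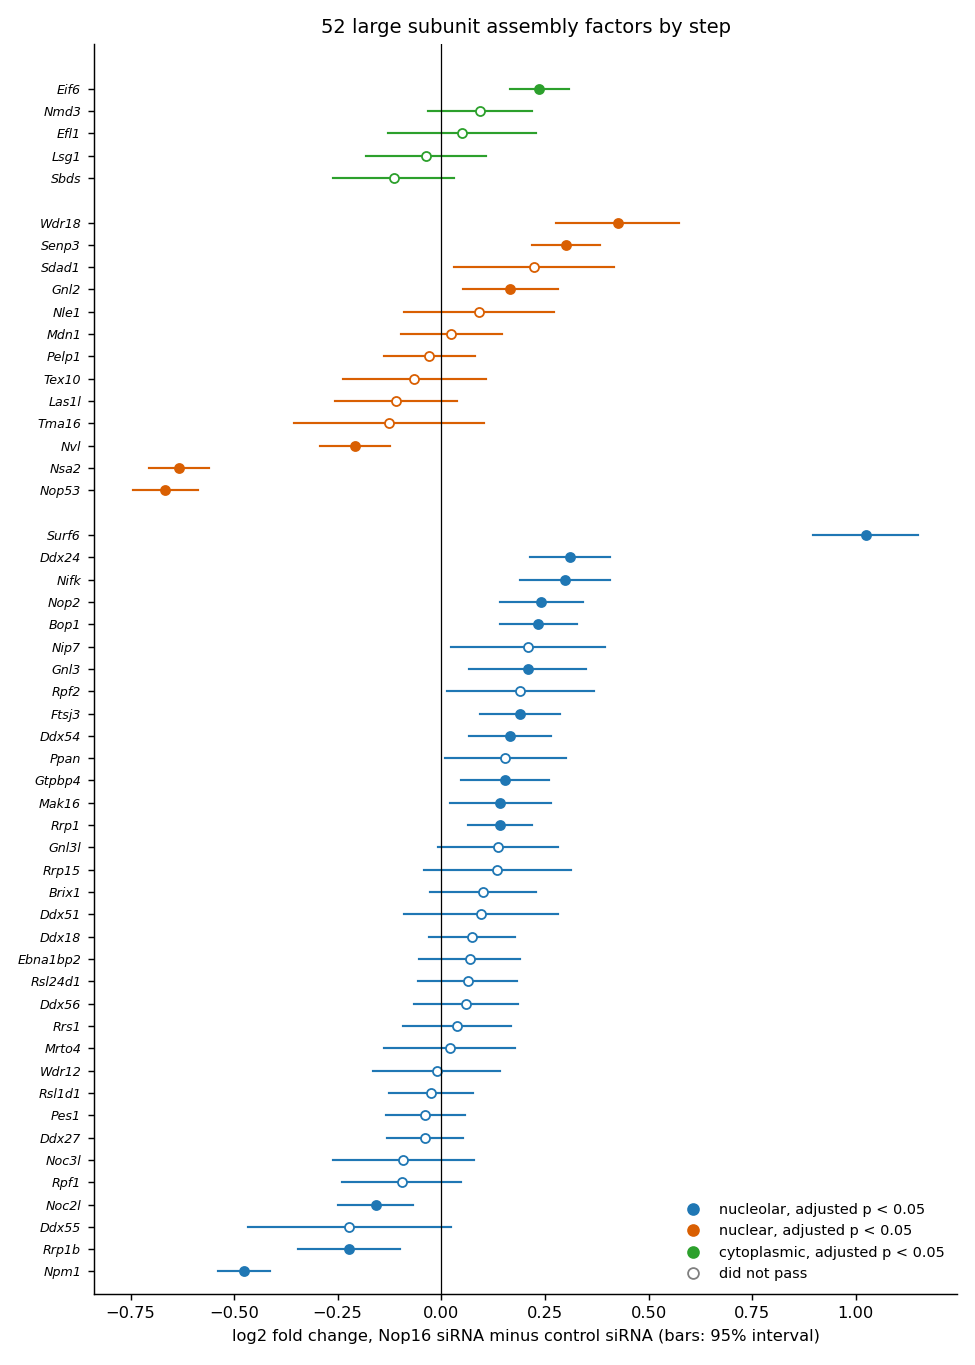
Log2 fold change (x axis, Nop16 siRNA minus control siRNA) of each of the 52 members (y axis), coloured by step, with 95% intervals not adjusted for the number of genes; filled points passed the edgeR adjusted p threshold and open points did not. Surf6 stands apart at 1.02, Nop53, Nsa2 and Npm1 lie lowest at -0.67, -0.63 and -0.48, and every other member lies between -0.22 and 0.43.

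**Figure D2:**
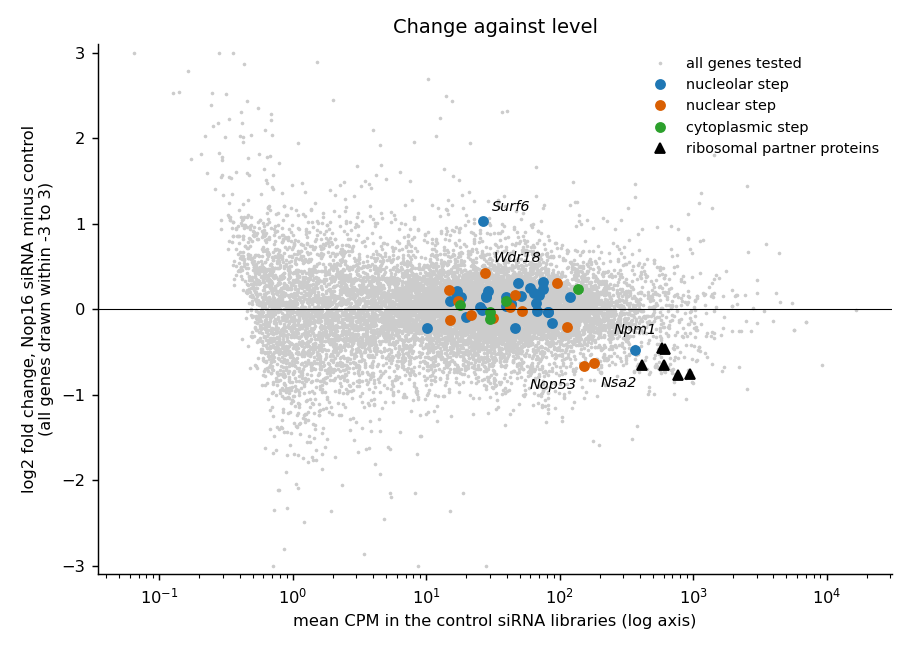
Change against level for all genes tested (grey, values beyond 3 in either direction drawn at the edge), members by step (coloured) and 6 large subunit proteins that partner with members (black triangles); the x axis is mean control CPM on a log axis and the y axis is the log2 fold change. Most members sit near 0, with Surf6 and Wdr18 highest, and Nop53, Nsa2 and Npm1 below 0 as the triangles are.

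The start regions of the members were searched for 3 sequence motifs, with no test of enrichment. Of the 52 members, 42 have an entry in the RefSeq promoter table (GRCm38.p6), which gives 250 bases before to 50 after each annotated start. The ETS family core CCGGAAG, sought on both strands, lay in at least 1 start region of 20 of the 42 (47.6%). It lay in 9.93% of all 27025 genes in the table and in 21.4% of the 9444 genes that were also tested for expression, a comparison added after the data were seen. The E-box CACGTG, which Myc and related factors bind and which reads the same on both strands, lay in 10 of 42 (23.8%), beside 8.09% and 11.9%. Neither of these motifs was found in 15 of the 42. The palindrome of the factor KAISO was in 0 of the 42, beside 0.525% of all genes and 1.22% of those also tested for expression. With shares this low, 0 of 42 does not set the members apart. By call, with no test made, CCGGAAG was in 3 of 11 matched members called higher, 2 of 4 called lower and 15 of 27 not called. CACGTG was in 1, 0 and 9 of them. A match is a description of letters and not of a bound site. The 4 regions below run from 250 bases before to 20 after the start and show this range. They are Surf6, with the largest rise, Nop2, which rose and holds both motifs, Rpf2, which holds both at this start and did not pass, and Nsa2, which fell and holds neither. Capitals mark CCGGAAG or its reverse complement and CACGTG.
Surf6, chr2:26902868-26903137, minus strand: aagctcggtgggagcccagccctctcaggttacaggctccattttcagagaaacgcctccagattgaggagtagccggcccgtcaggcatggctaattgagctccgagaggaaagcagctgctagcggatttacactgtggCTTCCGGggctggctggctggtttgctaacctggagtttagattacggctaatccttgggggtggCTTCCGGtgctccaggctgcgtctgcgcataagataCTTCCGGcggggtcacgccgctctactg
Nop2, chr6:125131633-125131902, plus strand: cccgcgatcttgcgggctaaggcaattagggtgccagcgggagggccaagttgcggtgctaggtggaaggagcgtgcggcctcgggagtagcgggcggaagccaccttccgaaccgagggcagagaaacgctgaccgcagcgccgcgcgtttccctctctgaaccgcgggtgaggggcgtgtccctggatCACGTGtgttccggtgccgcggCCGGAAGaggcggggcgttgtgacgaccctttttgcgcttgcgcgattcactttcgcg
Rpf2, chr10:40246960-40247229, minus strand: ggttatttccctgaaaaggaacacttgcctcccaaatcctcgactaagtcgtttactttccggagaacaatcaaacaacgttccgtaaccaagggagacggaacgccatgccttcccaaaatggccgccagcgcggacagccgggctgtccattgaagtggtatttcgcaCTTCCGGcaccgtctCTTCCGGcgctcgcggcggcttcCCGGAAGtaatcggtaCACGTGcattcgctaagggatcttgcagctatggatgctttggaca
Nsa2, chr13:97137907-97138176, minus strand: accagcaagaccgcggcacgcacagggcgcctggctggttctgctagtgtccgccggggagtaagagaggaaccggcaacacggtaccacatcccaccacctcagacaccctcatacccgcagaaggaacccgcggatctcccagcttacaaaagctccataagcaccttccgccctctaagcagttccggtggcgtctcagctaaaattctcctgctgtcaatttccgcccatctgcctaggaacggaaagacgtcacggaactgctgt
Surf6 holds CCGGAAG 3 times, with first bases at -109, -44 and -8 from the start. Nop2 holds CACGTG at -60 and CCGGAAG at -38. Npm1 and Nop53 are not among the matched entries.

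Of the 34 nucleolar factors, 11 rose, 3 fell and 20 did not pass, with a median change of 0.10. The share called was 41.2%, beside 45.4% of all genes tested, so the count does not set the step apart. Surf6 (ENSMUSG00000036160, chromosome 2, 26888628 to 26902879, minus strand, GRCm38), a nucleolar protein that binds nucleic acids, led them. It stood at 25.6, 26.3 and 28.3 CPM in control replicates 1 to 3 and at 55.6, 52.5 and 55.0 CPM in Nop16 siRNA replicates 1 to 3. All 3 Nop16 siRNA libraries lay far above all 3 controls, and the change was 1.02 (SE 0.0634, edgeR adjusted p = 2.82e-21). It was the only member past 2-fold.

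Npm1 (ENSMUSG00000057113, chromosome 11, 33152287 to 33163206, minus strand), nucleophosmin, is an abundant nucleolar chaperone of histones and ribosomal proteins. It stood at 362, 373 and 370 CPM in controls and at 257, 264 and 273 CPM after Nop16 siRNA. The groups did not overlap, and Npm1 fell by 0.48 on the log2 scale (SE 0.0311, edgeR adjusted p = 2.82e-20). Per length it was the most abundant member, at 138 RPKM (CPM per kilobase of exon) in controls, where the median member had 9.44 RPKM. Pseudogenes matched to Npm1 number 12 and carry counts equal to 20.5% of its own. Fragments that map to several places were counted at each, so its count is uncertain. Of 6 of them tested, 4 were lower and none was higher.

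The RNA helicases open and refold ribosomal RNA in the nucleolus. Ddx24 stood at 80.0, 70.4 and 76.5 CPM in controls and at 88.3, 93.6 and 99.0 CPM after Nop16 siRNA, and rose 1.24-fold (log2 0.31, SE 0.0483, edgeR adjusted p = 2.32e-07). Its groups did not overlap, though the highest control came within 10 CPM of the lowest Nop16 siRNA library. Ddx54 rose by 0.17, from 70.0 ± 1.45 to 78.6 ± 5.42 CPM (SD, n = 3 each). The other helicases did not pass, with changes of 0.10 for Ddx51, 0.07 for Ddx18, 0.06 for Ddx56, -0.04 for Ddx27 and -0.22 for Ddx55. Ddx55, at 10.1 ± 0.993 CPM in controls (SD, n = 3), had the widest interval among the members that did not pass, -0.47 to 0.02.

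Both methyltransferases of the group rose by a small amount. Nop2 modifies a cytosine base of the large subunit RNA. It stood at 61.6, 57.7 and 60.3 CPM in controls and at 72.9, 71.5 and 68.1 CPM after Nop16 siRNA, without overlap (log2 0.24, SE 0.0501, edgeR adjusted p = 5.26e-05). Ftsj3 methylates ribose and rose by 0.19, from 64.2 ± 0.624 to 73.1 ± 0.659 CPM (SD, n = 3 each). Nifk, a nucleolar protein that binds the proliferation antigen Ki-67, stood at 48.5, 49.4 and 47.5 CPM in controls and at 56.3, 61.4 and 61.1 CPM after Nop16 siRNA. It rose 1.23-fold (log2 0.30, SE 0.0542, edgeR adjusted p = 5.12e-06).

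PES1, BOP1 and WDR12 form the PeBoW complex, which is needed to mature the large subunit RNA. Bop1 alone of its 3 genes was called. It stood at 77, 73 and 76.3 CPM in controls and at 93.0, 83.7 and 89.5 CPM after Nop16 siRNA, without overlap (log2 0.23, SE 0.0467, edgeR adjusted p = 2.72e-05). Pes1 changed by -0.04 (95% interval -0.13 to 0.06) and Wdr12 by -0.01 (-0.16 to 0.14), and their groups overlapped. Per length, Pes1 and Bop1 stood at 27.2 and 25.5 RPKM in controls and Wdr12 at 2.18 RPKM. The length used is the union of all annotated exons, 11955 bases for Wdr12, and a long union lowers RPKM.

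The paralogs Rrp1 and Rrp1b, nucleolar proteins of early processing, were called in opposite directions. Rrp1 went from 120.2 ± 2.29 to 133 ± 5.72 CPM (SD, n = 3 each), and rose by 0.14 (SE 0.0389, edgeR adjusted p = 0.00198). Rrp1b stood at 44.5, 45.7 and 47.9 CPM in controls and at 38.2, 37.9 and 42.1 CPM after Nop16 siRNA, and fell by 0.22 on the log2 scale (SE 0.0611, edgeR adjusted p = 0.00196). Neither pair of groups overlapped.

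The nucleolar GTPases drive and check steps of assembly. Gnl3, nucleostemin, stood at 27.9, 29.7 and 29.9 CPM in controls and at 33.0, 34.7 and 33.5 CPM after Nop16 siRNA, and rose by 0.21 (SE 0.0703, edgeR adjusted p = 0.012). Gtpbp4 rose by 0.15, and the Gnl3 relative Gnl3l changed by 0.14 without passing (edgeR adjusted p = 0.121). Mak16 rose by 0.14 at an edgeR adjusted p of 0.0488. Some of these calls rested on single libraries or settings. Gnl3 lost its call without control replicate 1 (0.0552) and Gtpbp4 without control replicate 3 (0.0835). Mak16 lost it in DESeq2 (0.0926), with library size only (0.102), with no filter (0.111), without any 1 of the 3 control libraries (0.0525 to 0.190), and without Nop16 siRNA replicate 2 (0.0739) or 3 (0.197).

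Of the Noc proteins, which bind early particles as pairs, Noc2l went from 87.7 ± 2.22 to 78.6 ± 2.61 CPM (SD, n = 3 each) and fell by 0.16, and Noc3l changed by -0.09 without passing. Rpf2 and Rrs1 load the small ribosomal RNA of the large subunit with RPL5 and RPL11, and changed by 0.19 and 0.04 (edgeR adjusted p = 0.0725 and 0.67). The Brix domain factors Rpf1, Brix1 and Ppan changed by -0.10, 0.10 and 0.15, and none passed. Ppan passed in the fit without Nop16 siRNA replicate 2 (edgeR adjusted p = 0.0389).

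Rsl24d1 and Mrto4 hold the places of the ribosomal proteins RPL24 and RPLP0 until late in assembly, and neither passed. Rsl24d1 changed by 0.06 (95% interval -0.06 to 0.18) and Mrto4 by 0.02 (-0.14 to 0.18). A second gene model on the same strand covers 13.2% of the exons of Rsl24d1, and pseudogenes matched to Mrto4 carry counts equal to 20.3% of its own. The other nucleolar proteins did not pass, with changes of 0.21 for Nip7, 0.14 for Rrp15, 0.07 for Ebna1bp2 and -0.02 for Rsl1d1. Nip7 passed when control replicate 2 was left out (edgeR adjusted p = 0.0172) and when Nop16 siRNA replicate 1 was (0.0147).

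**Figure D3:**
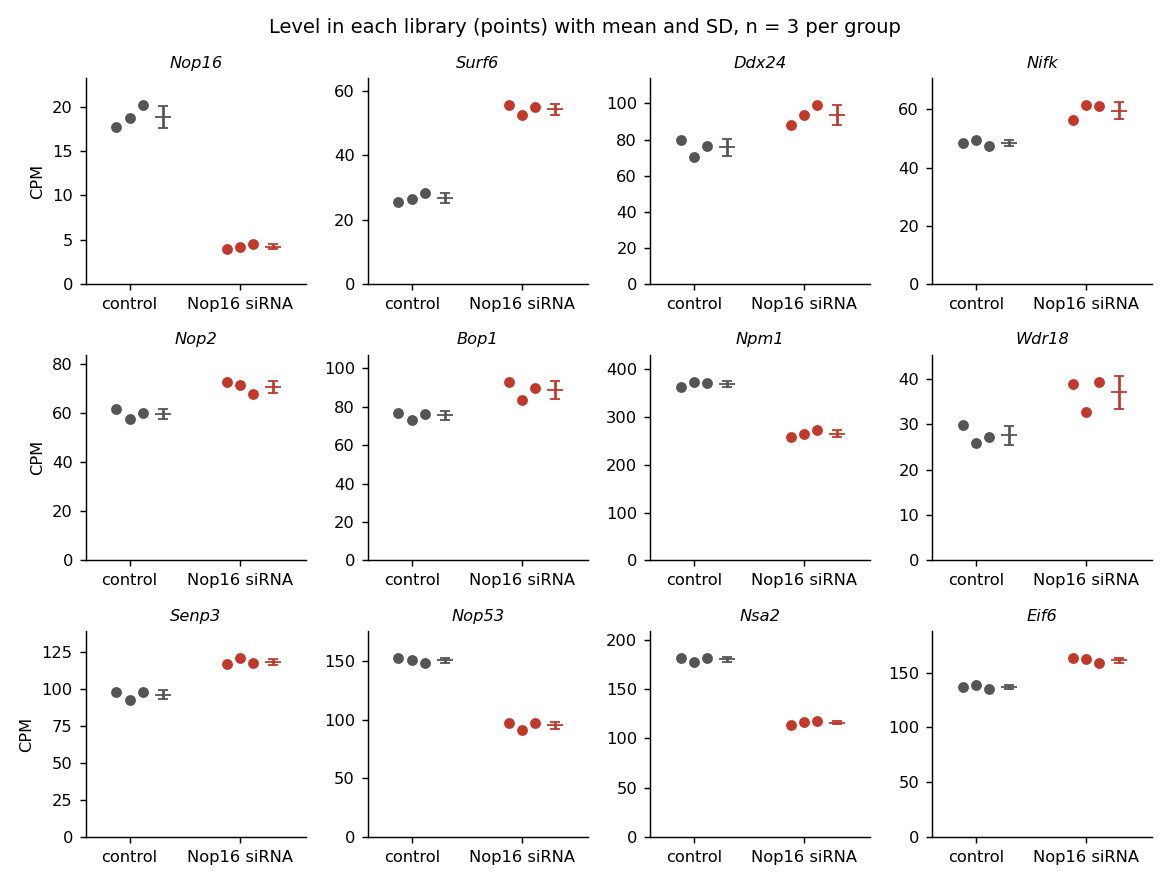
CPM (y axes, from 0) in each of the 3 control siRNA libraries (grey) and 3 Nop16 siRNA libraries (red) for Nop16 and 11 members, with mean and SD (n = 3 per group). For all 12 genes the Nop16 siRNA points lie wholly above or wholly below the control points. The 11 members were picked from those called, so this follows from the choice. The groups did not overlap in 25 of the 52 members and in 52.5% of all genes.

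Of the 13 nuclear factors, 3 rose, 3 fell and 7 did not pass, with a median change of -0.03. The share called was 46.2%, near the 45.4% of all genes tested. The 2 largest falls among the members were placed at this step, though Nsa2 can also be counted as nucleolar. Nop53 (ENSMUSG00000041560, chromosome 7, 15936183 to 15946074, minus strand, GRCm38) brings the RNA exosome to the particle to trim a spacer. It stood at 153, 152 and 149 CPM in controls and at 96.9, 91.4 and 97.2 CPM after Nop16 siRNA. It fell by 0.67 on the log2 scale (SE 0.039, edgeR adjusted p = 2.73e-22). Nsa2 (ENSMUSG00000060739, chromosome 13, 97129424 to 97137937, minus strand), which sits on the particle as it leaves the nucleolus, stood at 181, 177 and 181 CPM in controls and at 114, 116 and 118 CPM after Nop16 siRNA. It fell by 0.63 (SE 0.0364, edgeR adjusted p = 1.04e-22). In both genes the groups were far apart. Antisense genes share exons with Nsa2, and counting was strand-specific. Nsa2 matches 29 pseudogenes, whose counts equal 7.79% of its own, and Nop53 matches 1, at 4.48%.

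The spacer-removing complex and its SUMO protease did not move as a unit. Pelp1, Tex10 and Wdr18 encode the core that holds the endonuclease of Las1l, and Senp3 encodes the protease. Wdr18 (ENSMUSG00000035754, chromosome 10) stood at 29.8, 25.7 and 27.1 CPM in controls and at 38.9, 32.8 and 39.3 CPM after Nop16 siRNA, and rose 1.34-fold (log2 0.43, SE 0.0745, edgeR adjusted p = 2.74e-06). Senp3 stood at 97.7, 92.4 and 98.0 CPM in controls and at 117, 121 and 117 CPM after Nop16 siRNA, and rose 1.23-fold (log2 0.30, SE 0.0409, edgeR adjusted p = 7.66e-09). Neither overlapped between groups. Las1l changed by -0.11 (95% interval -0.26 to 0.04), Tex10 by -0.07 (-0.24 to 0.11) and Pelp1 by -0.03 (-0.14 to 0.08), and none passed.

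Of the ATPases that pull early factors off the particle, Nvl stood at 112, 120 and 112 CPM in controls and at 96.9, 104 and 96.5 CPM after Nop16 siRNA. It fell by 0.21 on the log2 scale (SE 0.0421, edgeR adjusted p = 3.74e-05). Mdn1, the giant ATPase of the group, changed by 0.02 and its docking partner Nle1 by 0.09, and neither passed. Gnl2, a GTPase of the nuclear particle, was called higher by 0.17 from 46.4 ± 1.97 to 52.04 ± 3.19 CPM (SD, n = 3 each), although its groups overlapped. Its call (edgeR adjusted p = 0.0143) was lost when the first control library was dropped (0.0811), and likewise for the second (0.0554) and the third (0.108) of the Nop16 siRNA libraries. Sdad1 changed by 0.22 at an edgeR adjusted p of 0.053. It passed with a filter of 5 CPM (0.0497), and also when control replicate 3 (0.0272) or Nop16 siRNA replicate 1 (0.0215) was dropped. Tma16 changed by -0.13 and did not pass, and its 5 matched pseudogenes carry counts equal to 163% of its own, so its level is uncertain.

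Cytoplasmic factors showed a single called change, 1 of 5 (20%), beside 45.4% of all genes tested. With so few genes the count does not set the step apart. Eif6 (ENSMUSG00000027613, chromosome 2, 155819832 to 155826925, minus strand, GRCm38) keeps a new large subunit from joining a small one too early. It stood at 137, 138 and 135 CPM in controls and at 163, 162 and 158 CPM after Nop16 siRNA. All Nop16 siRNA libraries were higher, and Eif6 rose 1.18-fold (log2 0.24, SE 0.0359, edgeR adjusted p = 1.16e-07). Sbds and Efl1, whose products together evict EIF6, changed by -0.11 (95% interval -0.26 to 0.03) and 0.05 (-0.13 to 0.23). The export adaptor Nmd3 changed by 0.09 (-0.03 to 0.22), and Lsg1, the GTPase that frees it, by -0.04 (-0.18 to 0.11). None of these 4 passed, and their edgeR adjusted p ran from 0.205 to 0.713.

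The levels were also summed over the genes of each step, with no test made. The nucleolar factors held 1896 to 1916 CPM in the 3 controls and 1916 to 1946 CPM in the 3 Nop16 siRNA libraries, and the lowest Nop16 siRNA library was level with the highest control. The nuclear factors held 802 to 815 CPM and 704 to 718 CPM. Without Nop53 and Nsa2, left out after their values were seen, the nuclear sum was 473 to 484 CPM in controls and 493 to 503 CPM after Nop16 siRNA, so the order of the groups turned. The cytoplasmic factors held 252 to 256 CPM and 276 to 281 CPM. Of these, Eif6 alone averaged 137 CPM in controls and 161 CPM after Nop16 siRNA. The nucleolar sum includes Npm1, which averaged 368 CPM and 265 CPM. All 52 members held 2957 to 2987 CPM in controls and 2896 to 2943 CPM after Nop16 siRNA. Without Npm1, which is among the members with the largest falls, they held 2583 to 2625 CPM and 2639 to 2670 CPM, so the order turned here too. With scaling by library size only, the ratio of the nucleolar sums went from 1.01 to 0.997.

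**Figure D4:**
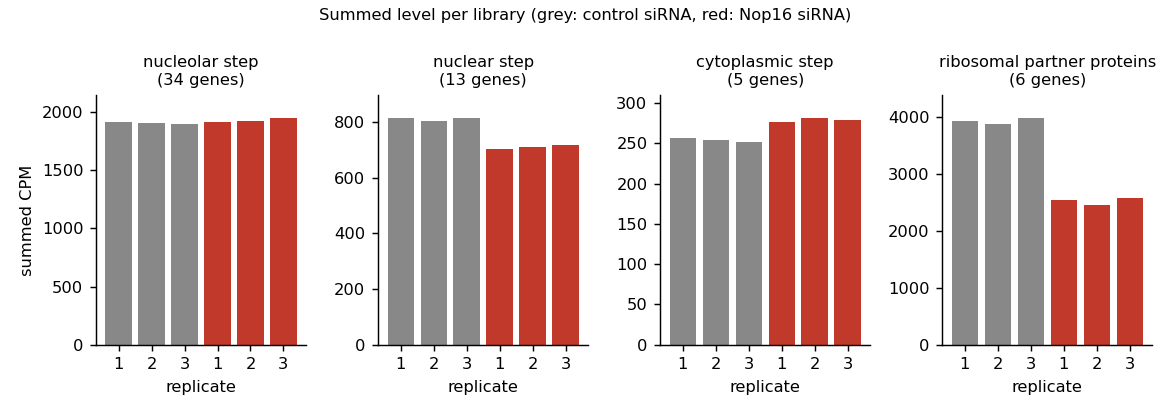
Summed CPM (y axes, from 0) in each library (x axes, replicate number) for the 3 steps and for 6 large subunit proteins, control siRNA in grey and Nop16 siRNA in red. The nucleolar bars are nearly level, the nuclear bars are lower after Nop16 siRNA, the cytoplasmic bars are slightly higher, and the ribosomal protein bars drop from 3876 to 3983 CPM to between 2456 and 2573 CPM.

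The 6 large subunit proteins that members load, hold the place of or sit beside were compared with them. All 6 fell: Rpl5 by 0.77, Rpl10 by 0.76, Rpl24 by 0.66, Rpl23 by 0.65, Rpl11 by 0.47 and Rplp0 by 0.45 on the log2 scale. Each was called lower, as were 22.4% of all genes tested and 27.5% of those in the control range of the members. The 6 genes averaged 417 to 946 CPM in controls, above that range, and no share was computed at their own level. Each also lay lower in every Nop16 siRNA library than in every control. Groups did not overlap, in either direction, for 52.5% of all genes. Of the factors set beside them here, Rpf2, Rrs1, Nmd3, Lsg1, Rsl24d1 and Mrto4 did not pass, and Eif6 was called in the other direction. Other members did fall with the ribosomal proteins. Npm1, a chaperone of ribosomal proteins, fell by 0.48 on the log2 scale, and Nop53 and Nsa2 fell by 0.67 and 0.63. Pseudogenes of the 6 ribosomal protein genes were not searched for. Fragments that map to several places were counted at each, so the levels of these 6 genes are uncertain.

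Another 18 large subunit assembly factors were tested in the same fit. Of these, 5 were higher and 2 lower, with a median of 0.08 and a range from -0.32 to 0.41. The share called was 38.9%, beside 45.4% of all genes tested. Ddx31, a nucleolar helicase, rose 1.33-fold from 11.3 ± 1.22 to 15.0 ± 1.03 CPM (SD, n = 3 each; edgeR adjusted p = 0.000817). Zfp622, a cytoplasmic factor, rose 1.21-fold (edgeR adjusted p = 5.17e-06). Spata5, the ATPase that releases RSL24D1, fell by 0.32 on the log2 scale (edgeR adjusted p = 0.0109), a call lost without control replicate 1 (0.0894) or Nop16 siRNA replicate 1 (0.0536). None of the 18 changed beyond 1.5-fold.

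Called members had higher counts. The 26 members with the higher control levels include 17 of the 21 called, and the other 26 include 4. Of all genes tested 45.4% were called, and 55.9% of those in the control range of the members. All genes were not split by level in the same way, so the split cannot be read as a trait of the members. The members that did not pass had a median control level of 30.0 CPM, beside 70.0 CPM for those called. For all 31 that did not pass, the 95% interval stayed inside a 1.5-fold change in either direction, and for 21 of them inside 1.2-fold. With the 4 residual degrees of freedom of the libraries alone, 13 were inside 1.2-fold. When changes were tested against a minimum fold of 1.2, which 16.5% of all genes passed (7.77% higher and 8.78% lower), 5 members passed: Surf6 and Wdr18 higher, and Nop53, Nsa2 and Npm1 lower.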

How the data were processed

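The authors deposited unnormalized fragment counts for each gene. Per the file headers these come from featureCounts 2.0.1, run on read pairs with GRCm38 gene models of Ensembl release 101. The run had strand setting 2, required 10 bases of overlap, and allowed counting of multi-mapped and multi-gene fragments, so 1 fragment can count for several genes. The submitters' processing notes also list Trim Galore and HISAT2 2.2.1. Symbols matched 55141 of 55401 IDs.

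Counts were tested with edgeR 4.0.16 (R 4.3.3; quasi-likelihood, robust, TMM, filterByExpr, no covariate), with Benjamini-Hochberg adjustment over all genes tested. SE is the log2 fold change over the root of F, and intervals use the test's own degrees of freedom (35.4 to 57 for members). Intervals were first made with the 4 residual degrees of freedom and changed after the results were seen, because those did not match the test. A count of 3 equals 0.130 to 0.192 CPM. Intervals and floors cover counting error and library spread only, without molecular identifiers. Chi-square per degree of freedom within groups ran from 2.51 to 3.14, above the value for independent sampling. Fragments counted for several genes can also raise it, so it does not show how far libraries differed beyond sampling noise. Overlaps were found with bedtools 2.31.1, and pseudogenes with BLAST 2.17.0 against GENCODE release M21 transcripts (85% identity over 50% of the pseudogene). In a test on simulated data for this comparison (14302 genes, 50 changed per size), 36% of 1.2-fold and 100% of 1.5-fold changes were recovered, and 6 of 174 calls were false. The simulation changed a far smaller share of genes than the 45.4% called in the data. Its rates therefore do not carry over to the calls given here.

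The members, steps and lists were chosen with earlier results of these data known. Every member could be named. Library values are printed for Npm1 and for called members with the largest change (up to 8 nucleolar, 5 nuclear and 2 cytoplasmic). Alternatives were library size only, RLE factors, DESeq2 1.42.0, limma-voom (limma 3.58.1), no filter, 5 CPM in 3 libraries, a replicate block, a minimum fold of 1.2, other steps for 5 members, and leaving out each library. Added after the data were seen were the summed levels under other settings, the ratios between genes, and the pseudogene and overlap checks. A search for pyrimidine tracts at annotated starts was also tried then, placed no tract exactly at a member's start, and is not used.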

Additional observations from a re-analysis of the deposited data

How the results depend on the processing

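Under a minimum fold of 1.2, calls fell to 1108 higher and 1253 lower over all genes, to 2 higher and 3 lower among members, to 2 nucleolar, 3 nuclear and 0 cytoplasmic members, and to 0 of the 18 other factors, since this tests a larger change. The median change of the members was 0.0488 with library size only, where the median of all genes was -0.023. Counting Rsl24d1, Mrto4 and Gtpbp4 as cytoplasmic and Nvl and Nsa2 as nucleolar gave 2 cytoplasmic calls in place of 1, 4 nuclear calls in place of 6 and 15 nucleolar calls in place of 14, and left 1 of the 2 largest falls at the nuclear step. Leaving out 1 library at a time, members higher ran from 12 to 17, members lower stayed at 6, nucleolar calls ran from 12 to 15, nuclear from 5 to 7, cytoplasmic stayed at 1, the member median ran from 0.07 to 0.08, all genes higher from 2918 to 3039 and lower from 2899 to 3010, and Nop16 from -2.22 to -2.11. Of the 21 members called, 17 were called in every fit apart from the minimum fold, and none of the 52 was called in opposite directions.

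Replicate numbers did not pair the libraries: same-numbered deviations correlated at 0.0175, -0.0198 and -0.0223 over 14269 genes, and not every library correlated best with its own number. The fit with a replicate block gave 21 member calls, as without it, of which 20 were shared: Mak16 was lost (edgeR adjusted p = 0.0525) and Nip7 gained (0.0464). SEs of the members ran from 0.0311 to 0.122, and the part of depth in them was not tested.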

Other observations

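Ratios within a library do not depend on scaling between libraries. For 9 pairs chosen after the values were seen, the levels per length were set against each other as a percent. The lengths are unions of all annotated exons, for example 3337 bases for Rrp1 and 7705 for Rrp1b. The size of each percent depends on them and is not a measured relative abundance. The fold between groups does not depend on length. Rsl24d1 stood at 6.15, 6.30 and 6.19% of Rpl24, the protein whose place its product holds, in controls, and at 9.85, 10.3 and 10.6% after Nop16 siRNA. Mrto4 stood at 2.75% ± 0.260 of Rplp0 in controls and at 3.82% ± 0.182 after Nop16 siRNA (SD, n = 3 each). Eif6 went from 14.9% ± 0.201 to 27.6% ± 1.52 of Rpl23, Rpf2 from 4.42% ± 0.256 to 8.63% ± 0.502 of Rpl5, and Nmd3 from 0.848% ± 0.0439 to 1.53% ± 0.0916 of Rpl10. These 5 ratios restate the lower ribosomal protein levels given above beside factors that changed little or, for Eif6, rose. The uncertainty of those ribosomal protein levels carries over to the ratios, as does that of Rsl24d1 and Mrto4. Pseudogenes matched to these 2 factors carry counts equal to 9.24% and 20.3% of their own. A second gene model on the same strand covers 13.2% of the exons of Rsl24d1.

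Within paralogs and complexes, Rrp1 stood at 603% ± 29.6 of Rrp1b in controls and at 778% ± 36.6 after Nop16 siRNA. Bop1 went from 93.9% ± 3.17 to 114% ± 12.05 of Pes1, and Wdr18 from 93.8% ± 16.1 to 131% ± 13.9 of Tex10. Gnl3 stood at 94.6% ± 5.76 of Gnl3l in controls and at 99.5% ± 4.80 after Nop16 siRNA (SD, n = 3 each). No test is given for these pairs, since they were chosen on their values. Nop53, Nsa2 and Npm1 are the members with the largest falls, so a lower share for them was fixed by that choice. Together they held 23.3 to 23.7% of the summed CPM of the 52 members in controls and 16.2 to 16.6% after Nop16 siRNA.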
